A study of Arabidopsis thaliana with 54 samples.

Results

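Expansins are small secreted proteins that loosen plant cell walls at acid pH. They weaken the contacts between cellulose and the surrounding polysaccharides without cutting them, and growing cells use them to extend under turgor. The family holds alpha-expansins (EXPA), beta-expansins (EXPB) and the expansin-like groups EXLA and EXLB, for which a loosening activity has not been established. Hypocotyls are known to elongate under canopy shade and, in the light, under ethylene, a gaseous hormone. The genes described here are EXPA4 (AT2G39700), EXPA8 (AT2G40610) and EXPA15 (AT2G03090), which are alpha-expansins, EXPB1 (AT2G20750), a beta-expansin, and EXLA2 (AT4G38400), an expansin-like gene. They were chosen by name, with earlier results of these data known. The array features that carry exactly 1 gene, equal to one of these 5, were taken out of 16746 features with exactly 1 gene. Each gene had 1 such feature. A further 18 expansin and expansin-like genes were measured on the same arrays.

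The arrays were made from Arabidopsis thaliana Col-0 seedlings that were 1 day old when treatment began, grown at 21 °C in days of 9 h light and 15 h dark. All groups were kept in closed glass desiccators. Control seedlings stood in light of 140 µmol m-2 s-1 (photosynthetically active), with 29 µmol m-2 s-1 of blue light and a red to far-red ratio of 2.1. Ethylene seedlings had the same light with 1 µl per litre of the gas. Shade seedlings had no added ethylene and stood under a green filter, which left 40 µmol m-2 s-1, 3 µmol m-2 s-1 of blue light and a red to far-red ratio of 0.45, so that shade here combines low light, low blue and low red to far-red. The hypocotyl, and the cotyledons with the attached shoot apical meristem (called cotyledon below), were collected after 1.5, 13.5 and 25.5 h of treatment. The collection at 13.5 h fell in the dark period and used a green safelight. Control and shade seedlings were then in the dark alike, so shade at night names the group and not the light at that time. Each of the 18 groups of tissue, treatment and time had 3 arrays, from 3 independent experiments, and the RNA on each array came from 2 technical replicates, of 25 seedlings each, that were pooled.

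Values are log2 levels after RMA, the array normalization the submitters used. A level of one gene cannot be set against that of another, since each is read by other probes. Differences are given on the log2 scale as the difference ± its standard error (n = 3 arrays a group), with a p from limma adjusted by the Benjamini-Hochberg method over 17504 features that carry a gene. A gene is said to have risen or fallen where the adjusted p was below 0.05. The smallest exact permutation p for 3 arrays against 3 is 0.1, so no gene was tested alone. In whole tissue, fewer cells of a type and less RNA per cell cannot be told apart.

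Array medians ran from 4.15 to 4.55, arrays of a group correlated at 0.966 to 0.983, and no 2 arrays held identical values. The tissue labels were checked on listed markers. Of 19 mesophyll markers 4 were measured, and all had a higher median over the 27 cotyledon arrays than over the 27 hypocotyl arrays: RCA, which activates Rubisco, at 12.09 against 11.53, PRK at 10.17 against 9.44, LHCB4.1 at 10.39 against 10.01 and LHCB4.2 at 10.02 against 9.45. Of 10 shoot apex markers only CLV3, the stem cell peptide, was measured, and it was dim in both tissues (medians of 2.01 and 1.78). Roots were discarded by the submitters, yet 6 arrays stood apart in the mean of 5 jacalin lectin genes from the list of root markers. The mean of these 5 genes was 7.22 and 7.58 in control hypocotyl at 1.5 h, replicates 1 and 3, 7.42 and 6.50 in control hypocotyl at 13.5 h, replicates 1 and 3, and 5.67 in ethylene hypocotyl at 13.5 h, replicate 1. The other hypocotyl arrays lay between 2.91 and 5.11. In cotyledon, shade at 13.5 h, replicate 3, was at 4.84 and the other arrays reached at most 3.82. Of these lectins, AT1G52050 and AT1G52060 reached 7.71 and 8.85 in hypocotyl, over medians of 1.79 and 1.96. AT1G52070 also rose far above its median of 1.60. JAL31 and JAL33 reached only 9.002 and 6.10 there, over medians of 8.43 and 5.34. The root marker PYK10 was bright in both tissues, at 12.36 or more in hypocotyl and 12.24 or more in cotyledon. So the 6 arrays were not set apart by JAL31 or JAL33. Called results of the 5 genes that rest on these arrays, and whose call ends or whose size moves by over 1.5 times without them, are given both ways below. Uncalled results are given both ways in some cases only, and others also moved by over 1.5 times without these arrays. Without them control hypocotyl at 1.5 h and at 13.5 h is replicate 2 alone, so that a p against it takes the spread from the other groups. At 1.5 h the hypocotyl arrays left out are all control arrays. The arrays kept there reached 6.73 in ethylene and 6.01 in shade for the mean of the 10 measured root markers.

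Over the 12 contrasts of a treatment with its control (matched for tissue and time), the 5 genes gave 23 calls in 60 tests. Of these 14 were higher and 9 lower. Over all features 8.18% of tests were called. The genes were chosen with earlier results known, so here and below their counts beside such a share are a description and not a test. EXPA8 was called most often, with 6 rises and 1 fall in 12 contrasts. EXLA2 had 4 rises and 2 falls, EXPB1 had 4 rises, EXPA15 had 4 falls and EXPA4 had 2 falls. In the hypocotyl, ethylene left 2 of the 5 genes lower at 1.5 h (3.03% of all features called), 2 higher and 1 lower at 13.5 h (12%), and 2 higher and 1 lower at 25.5 h (22.9%). Shade in the hypocotyl left 1 gene higher at 1.5 h (12.4%), 3 higher and 1 lower at 13.5 h (10.8%), and 3 higher and 2 lower at 25.5 h (15.3%). In the cotyledon, ethylene called no gene at 1.5 h (1.01%), and 1 lower at 13.5 h (1.61%) and at 25.5 h (5.20%). Shade in the cotyledon called none at 1.5 h (0.526%), 2 higher at 13.5 h (4.54%) and 1 higher at 25.5 h (8.81%). Treatments of the same tissue and time share their control arrays, so their counts are not independent of each other.

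**Figure D1:**
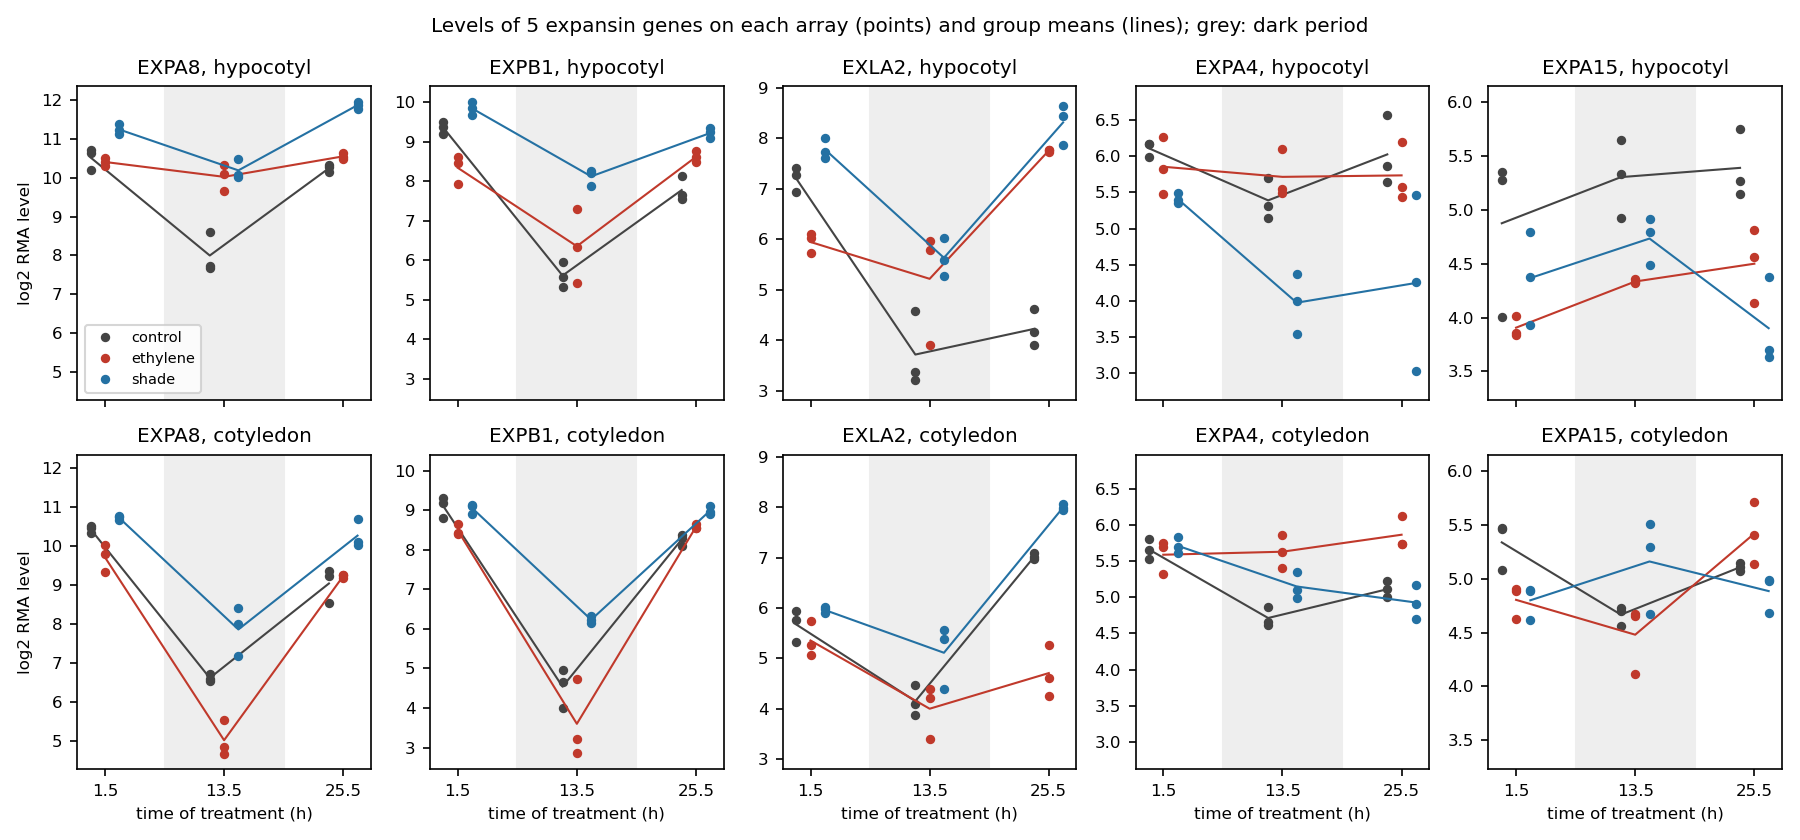
Log2 RMA level (vertical axis) of each gene on every array (points) and the mean of each group (lines) against the time of treatment in hours, with hypocotyl in the upper row and cotyledon in the lower row. EXPA8 and EXPB1 are lowest at 13.5 h in both control tissues, and in shade they stay above the control there.

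EXPA8 was low at night in control seedlings and stood higher in shade in both tissues, while at night ethylene raised it in the hypocotyl and lowered it further in the cotyledon. In control hypocotyl the arrays read 10.20, 10.64 and 10.70 at 1.5 h, 7.68, 8.60 and 7.72 at 13.5 h, and 10.14, 10.26 and 10.32 at 25.5 h. The night arrays lay below all day arrays, and the fall from 1.5 to 13.5 h was -2.52 ± 0.24, or 5.72-fold (adjusted p = 3.19e-11). Without the arrays high in jacalin lectins this fall was -2.04, and the falls of EXPB1 and EXLA2 over the same hours, described below, were -4.17 and -4.20. The level then rose again by 2.24 ± 0.24 (adjusted p = 5.99e-10). Control cotyledon showed a deeper dip. Its arrays read 10.47, 10.52 and 10.33, then 6.59, 6.72 and 6.54, then 8.53, 9.35 and 9.24, a fall of -3.82 ± 0.24 or 14.1-fold (adjusted p = 2.21e-16) and a rise of 2.43 ± 0.24 (adjusted p = 5.52e-11). A day later the cotyledon stood at a lower level than at 1.5 h, by -1.39 ± 0.24 (adjusted p = 2.54e-05). The same difference in hypocotyl was -0.28 ± 0.24 (adjusted p = 0.412, 95% interval -0.76 to 0.21).

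At night the treated hypocotyls lay far above the control: ethylene arrays read 9.66, 10.31 and 10.09 and shade arrays 10.02, 10.06 and 10.47. Neither group overlapped the control, and both rose, by 2.02 ± 0.24 or 4.06-fold in ethylene (adjusted p = 3.40e-08) and by 2.19 ± 0.24 or 4.55-fold in shade (adjusted p = 1.08e-08). Without the arrays high in jacalin lectins, 2 of which are control arrays here, these rises were 1.60 and 1.59. By the second day the hypocotyl treatments had parted. Shade arrays read 11.95, 11.86 and 11.76, the highest of the 18 groups, and stood 1.62 ± 0.24 above the control (adjusted p = 1.52e-06). Ethylene arrays read 10.52, 10.49 and 10.63, a difference from the control of 0.31 ± 0.24 (adjusted p = 0.450). After 1.5 h, shade arrays at 11.21, 11.38 and 11.11 were above the control by 0.72 ± 0.24 (adjusted p = 0.0391), where the median of all features was -0.12. Leaving out any 1 of the 6 arrays ended that call (adjusted p 0.0512 to 0.187), as did leaving out the 2 control arrays high in jacalin lectins (0.59, adjusted p = 0.285) a fit to the compared arrays alone (adjusted p = 0.0550) and adjusting over all features of the array (adjusted p = 0.0532). Ethylene at 1.5 h gave -0.11 ± 0.24 (adjusted p = 0.996).

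In the cotyledon at night EXPA8 moved in opposite directions. Ethylene arrays read 4.68, 5.53 and 4.85, all below the control, a fall of -1.60 ± 0.24 or 3.03-fold (adjusted p = 4.52e-05). Shade arrays read 7.99, 8.41 and 7.19, all above the control, a rise of 1.25 ± 0.24 or 2.37-fold (adjusted p = 0.000927). These 2 groups do not overlap with each other or with the control. On the second day the shade arrays, at 10.03, 10.10 and 10.69, were 1.23 ± 0.24 above the control (adjusted p = 0.000427), and ethylene arrays at 9.19, 9.25 and 9.26 differed from it by 0.19 ± 0.24 (adjusted p = 0.793). Fitted to the compared arrays alone, both shade rises missed the threshold, with adjusted p of 0.114 at 13.5 h and 0.0552 at 25.5 h. At 1.5 h neither ethylene (-0.72 ± 0.24, adjusted p = 0.193) nor shade (0.29 ± 0.24, adjusted p = 0.850) passed the test.

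EXPB1 also fell at night in both control tissues, and it rose in shade in both tissues. In control hypocotyl its arrays read 9.36, 9.48 and 9.20 at 1.5 h, 5.95, 5.31 and 5.57 at 13.5 h, and 7.54, 7.65 and 8.13 at 25.5 h. The groups do not overlap: the level fell by 3.74 into the night (-3.74 ± 0.30, 13.3-fold, adjusted p = 4.62e-13), rose by 2.16 ± 0.30 (adjusted p = 3.17e-07) and remained below the first day by -1.57 ± 0.30 (adjusted p = 7.39e-05). In control cotyledon the arrays read 9.19, 9.31 and 8.80, then 4.00, 4.66 and 4.96, then 8.38, 8.30 and 8.10. The night fall there was -4.56 ± 0.30, or 23.6-fold (adjusted p = 1.63e-15), the largest difference of the 5 genes between control groups over time. It was followed by a rise of 3.72 ± 0.30 (adjusted p = 3.50e-13), and the second day against the first was -0.84 ± 0.30 (adjusted p = 0.0501), which just missed the threshold.

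At night EXPB1 was higher in the shade group than in the control in both tissues. Hypocotyl shade arrays read 8.21, 8.26 and 7.89, all above the control, a rise of 2.51 ± 0.30 or 5.69-fold (adjusted p = 1.01e-07), or 2.80 without the control arrays high in jacalin lectins. Cotyledon shade arrays read 6.34, 6.15 and 6.21, also clear of the control, a rise of 1.69 ± 0.30 or 3.23-fold (adjusted p = 0.000428). On the second day the hypocotyl shade arrays, at 9.23, 9.34 and 9.08, stood 1.44 ± 0.30 above the control (adjusted p = 0.000451). The cotyledon shade arrays, at 9.11, 8.91 and 8.96, were all above the control arrays, yet the difference of 0.73 ± 0.30 did not pass (adjusted p = 0.137). At 1.5 h, shade gave 0.49 ± 0.30 in hypocotyl (adjusted p = 0.319) and -0.04 ± 0.30 in cotyledon (adjusted p = 0.998).

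Ethylene gave a single call for EXPB1. Hypocotyl ethylene arrays at 25.5 h read 8.47, 8.62 and 8.75, above all control arrays, a rise of 0.84 ± 0.30 or 1.79-fold (adjusted p = 0.0390). Leaving out 5 of the 6 arrays, one at a time, ended this call (adjusted p 0.0558 to 0.149; the exception was control replicate 3), as did centring on reference genes (0.74, adjusted p = 0.0679). At 1.5 h the ethylene arrays, at 8.62, 8.47 and 7.93, were all below the control, by -1.01 ± 0.30 (adjusted p = 0.0566). At 13.5 h they spread from 5.42 to 7.29 and overlapped the control (0.74 ± 0.30, adjusted p = 0.117). The lowest of them, replicate 1, is high in jacalin lectins; without the arrays high in these the difference was 1.50 and passed (adjusted p = 0.0154), against 1 control array. Cotyledon ethylene gave -0.61, -0.94 and 0.32 at 1.5, 13.5 and 25.5 h, with adjusted p of 0.621, 0.123 and 0.701; the night arrays there read 2.86, 3.22 and 4.73.

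EXLA2, which in Arabidopsis is also known for the raised resistance to necrotrophic fungi of plants that lack it, had the largest responses of the 5 genes, on the second day. Control hypocotyl and control cotyledon ran in opposite directions between the days. In control hypocotyl the arrays read 6.94, 7.41 and 7.27 at 1.5 h, 3.36, 3.20 and 4.58 at 13.5 h and 4.15, 4.62 and 3.90 at 25.5 h. The gene fell into the night by -3.49 ± 0.35, or 11.2-fold (adjusted p = 1.82e-10), and on the second day it was still -2.98 ± 0.35 below the first (adjusted p = 1.19e-08), with 25.5 h against 13.5 h at 0.51 ± 0.35 (adjusted p = 0.367). Without the arrays high in jacalin lectins the latter was 1.02 and passed (adjusted p = 0.0409). In control cotyledon the arrays read 5.94, 5.76 and 5.32, then 3.87, 4.48 and 4.1, then 7.01, 6.97 and 7.09. This was a night fall of -1.52 ± 0.35 (adjusted p = 0.00122) and a rise of 2.87 ± 0.35 or 7.31-fold (adjusted p = 1.51e-08) to a level 1.35 ± 0.35 above the first day (adjusted p = 0.00494).

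On the second day both treatments put hypocotyl EXLA2 far above the control. Ethylene arrays read 7.77, 7.76 and 7.74 and shade arrays 8.44, 8.64 and 7.87, against 3.90 to 4.62 in the control. The rises were 3.53 ± 0.35 or 11.6-fold in ethylene (adjusted p = 1.16e-10) and 4.09 ± 0.35 or 17.1-fold in shade (adjusted p = 7.18e-12), and they kept their call in every alternative tried. The mean of the 4 measured mesophyll markers also differed there: it ran from 9.43 to 9.68 in the ethylene arrays, from 10.45 to 10.60 in the shade arrays and from 10.56 to 10.65 in the control. At 13.5 h it ran from 9.19 to 9.40 in ethylene, from 9.58 to 9.93 in shade and from 9.74 to 10.09 in the control, and at 1.5 h the ethylene and control arrays overlapped. Its part in the ethylene results of the hypocotyl, for EXLA2 and the other genes, was not tested. In the cotyledon on the same day ethylene lowered the gene: its arrays read 5.26, 4.61 and 4.26 against 6.97 to 7.09 in the control, a fall of -2.31 ± 0.35 or 4.97-fold (adjusted p = 1.42e-05). Cotyledon shade arrays, at 8.06, 7.98 and 7.94, were all above the control, by 0.97 ± 0.35 (adjusted p = 0.0801).

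Earlier, hypocotyl EXLA2 first fell in ethylene and then rose. At 1.5 h ethylene arrays read 6.10, 6.02 and 5.72, below all control arrays (-1.26 ± 0.35, adjusted p = 0.0363). Leaving out any 1 of the 6 arrays ended that call (adjusted p 0.0546 to 0.155), as did testing all features of the array (adjusted p = 0.0525); without the control arrays high in jacalin lectins it was -1.46 (adjusted p = 0.0156), against 1 control array. At 13.5 h ethylene arrays read 3.90, 5.79 and 5.96 and overlapped the control, with a rise of 1.50 ± 0.35 (adjusted p = 0.00228). Replicate 1 of ethylene, the low one, and control replicates 1 and 3 are arrays high in jacalin lectins; without them the rise of the 2 remaining ethylene arrays over 1 control array, 3.20, was 2.67 (adjusted p = 1.91e-06). Without ethylene replicate 3 it was 1.13 (adjusted p = 0.0549), and fitted to the compared arrays alone its adjusted p was 0.235. Shade arrays at 13.5 h read 5.59, 6.03 and 5.28, above all control arrays, a rise of 1.92 ± 0.35 (adjusted p = 0.000156; 0.0585 when fitted to the compared arrays alone), or 2.43 without the control arrays high in jacalin lectins. Shade at 1.5 h gave 0.58 ± 0.35 (adjusted p = 0.314). The 4 cotyledon values at 1.5 and 13.5 h lay between -0.32 and 0.96, the latter in shade at 13.5 h, and none passed (adjusted p 0.122 to 0.967). The lowest of the shade arrays at 13.5 h, replicate 3 at 4.39, is the cotyledon array high in jacalin lectins; without such arrays the difference was 1.32 and passed (adjusted p = 0.00225).

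EXPA4 was the one gene of the 5 called lower in hypocotyl of the shade group at night and on the second day without a call in ethylene. Hypocotyl shade arrays at 13.5 h read 3.55, 4.00 and 4.38 against 5.15, 5.70 and 5.32 in the control, with no overlap (-1.41 ± 0.30, 2.66-fold, adjusted p = 0.00109), and -1.72 without the control arrays high in jacalin lectins. At 25.5 h they read 5.46, 3.03 and 4.26 against 5.64, 6.57 and 5.86 (-1.77 ± 0.30, 3.42-fold, adjusted p = 2.35e-05). The shade arrays at 25.5 h spread widely, with an SD of 1.22, the largest of any group for this gene. Without the lowest of them, replicate 2, the fall was -1.16 (adjusted p = 0.00189), and fitted to the compared arrays alone its adjusted p was 0.0796. At 1.5 h hypocotyl shade arrays read 5.39, 5.35 and 5.49, below the control arrays at 6.17, 6.17 and 5.98, and the difference of -0.70 ± 0.30 did not pass (adjusted p = 0.132).

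Ethylene left hypocotyl EXPA4 within 0.33 of the control: -0.25, 0.32 and -0.29 at 1.5, 13.5 and 25.5 h, each ± 0.30, with adjusted p of 0.970, 0.635 and 0.621 and overlapping arrays. In the cotyledon, ethylene arrays lay above all control arrays at 13.5 h (5.40, 5.86 and 5.62 against 4.66, 4.61 and 4.86) and at 25.5 h (5.74, 6.11 and 5.73 against 5.00, 5.22 and 5.11). These differences, 0.91 ± 0.30 (adjusted p = 0.143) and 0.75 ± 0.30 (adjusted p = 0.172), did not pass. The other 4 cotyledon values lay between -0.18 and 0.44. Over time the control gave 1 call, a fall from 1.5 to 13.5 h in the cotyledon (-0.95 ± 0.30, adjusted p = 0.0224). Leaving out control cotyledon replicates 1 or 2 at 13.5 h, or 2 or 3 at 1.5 h, ended it (adjusted p 0.0523 to 0.0816).

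EXPA15 was called lower in the hypocotyl in both treatments, and the size of 2 of these falls depended on the control arrays high in jacalin lectins. On the second day, when no hypocotyl array was high in them, control arrays read 5.15, 5.27 and 5.75, shade arrays 4.38, 3.63 and 3.70, and ethylene arrays 4.13, 4.56 and 4.81. No treated array reached the lowest control array. The falls were -1.49 ± 0.25 or 2.81-fold in shade (adjusted p = 2.04e-05) and -0.89 ± 0.25 or 1.85-fold in ethylene (adjusted p = 0.00685). The ethylene call ended without ethylene replicate 1 (adjusted p = 0.0722) or without control replicate 3 (adjusted p = 0.0682).

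At 1.5 h control hypocotyl EXPA15 read 5.28 and 5.35 in the arrays high in jacalin lectins, replicates 1 and 3, and 4.00 in replicate 2. Ethylene arrays read 3.84, 4.02 and 3.86, so that control replicate 2 lay among them. The difference of -0.97 ± 0.25 passed (adjusted p = 0.0208), but against replicate 2 alone it was -0.09 (adjusted p = 1, with the spread taken from the other groups). The call also ended without replicate 1 or 3 of either group (adjusted p 0.0711 to 0.228) and when fitted to the compared arrays alone (adjusted p = 0.370). At 13.5 h the control arrays read 5.34, 4.93 and 5.65, with replicate 2 again the lowest, and ethylene arrays 4.36, 4.33 and 4.32. This fall of -0.97 ± 0.25 (adjusted p = 0.00631) was -0.60 without the arrays high in jacalin lectins (adjusted p = 0.303), and it ended without control replicate 3 (adjusted p = 0.0605). Of 20 listed root markers 10 were measured, the 5 lectins among them, and their mean over genes ran from 5.43 to 8.16 in control hypocotyl at 1.5 h, from 4.69 to 7.68 at 13.5 h and from 4.40 to 4.63 at 25.5 h. In ethylene hypocotyl it ran from 5.03 to 6.73, from 4.53 to 6.46 and from 4.14 to 4.72 at the same times, and in shade hypocotyl from 4.94 to 6.01, from 4.57 to 4.81 and from 4.24 to 4.60. The part of root material in the EXPA15 falls was not tested. Shade gave -0.51 ± 0.25 at 1.5 h (adjusted p = 0.195) and -0.57 ± 0.25 at 13.5 h (adjusted p = 0.165). Against control replicate 2 alone these differences were 0.37 and -0.19. The 6 cotyledon values lay between -0.54 and 0.49, with adjusted p from 0.323 to 0.899.

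**Figure D2:**
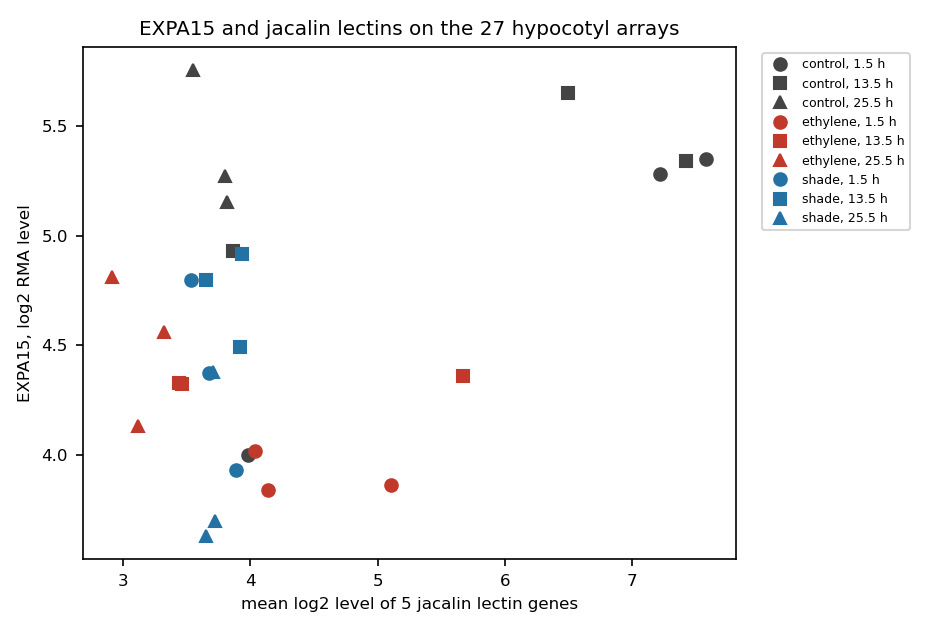
EXPA15 log2 RMA level (vertical axis) against the mean log2 level of 5 jacalin lectin genes (horizontal axis) on the 27 hypocotyl arrays, coloured by treatment, with circles for 1.5 h, squares for 13.5 h and triangles for 25.5 h. The 4 control arrays above 6 in jacalin lectins have EXPA15 between 5.28 and 5.65, and the 3 controls at 25.5 h have EXPA15 between 5.15 and 5.75 with lectins between 3.55 and 3.82.

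**Figure D3:**
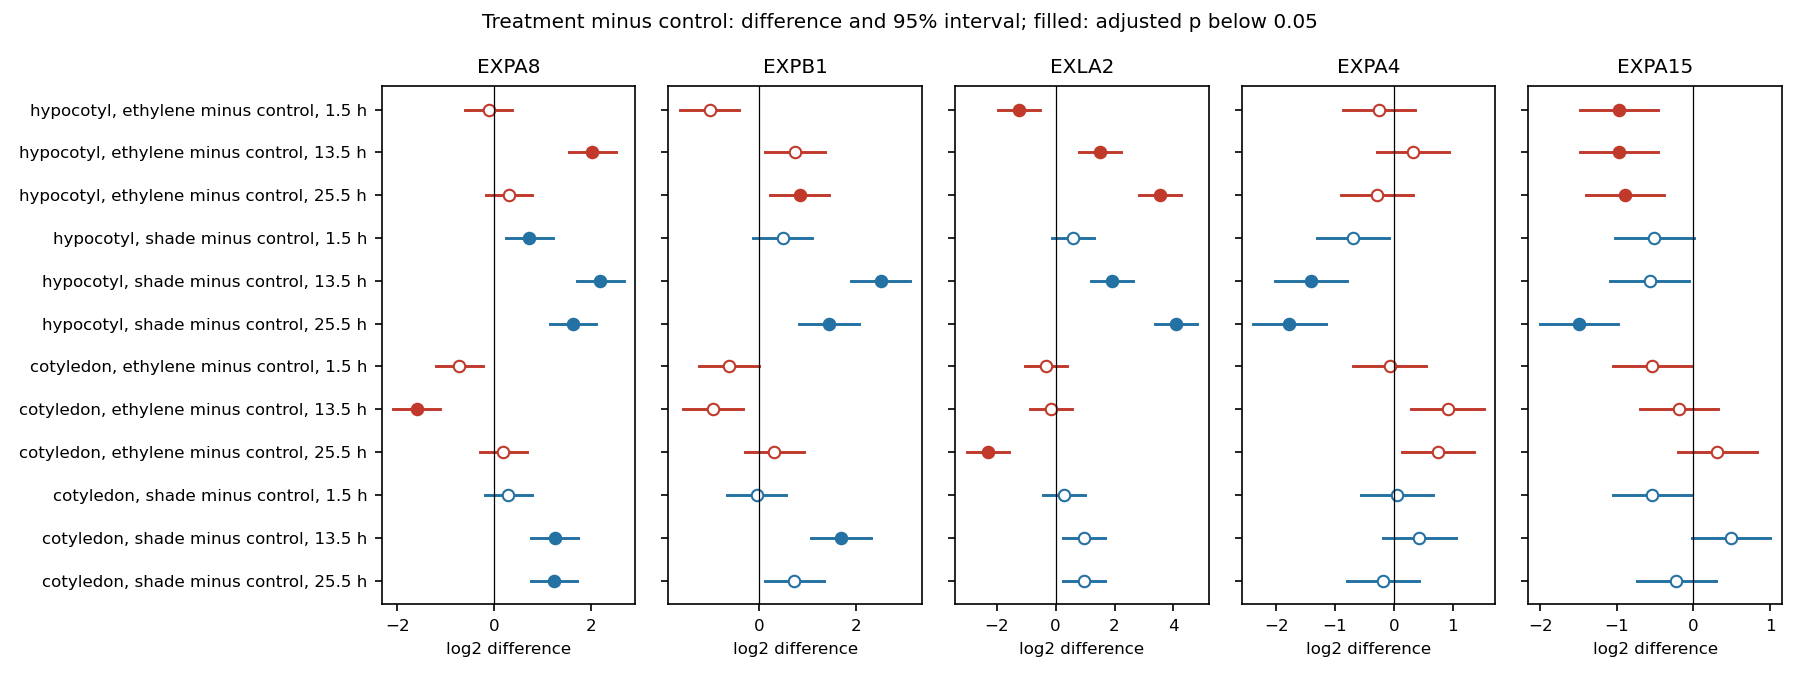
Treatment minus control on the log2 scale (horizontal axis) with the 95% interval from the fit, for the 12 treatment contrasts (vertical axis), in red for ethylene and blue for shade; filled points have an adjusted p below 0.05. EXLA2 in hypocotyl at 25.5 h lies at 3.53 in ethylene and 4.09 in shade, and EXPA8 in cotyledon at 13.5 h lies at -1.60 in ethylene and 1.25 in shade.

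Shade was also set directly against ethylene in the same tissue and time. The 5 genes gave 13 calls in 30 tests, 10 higher in shade and 3 lower, where 11.8% of all tests were called. In the hypocotyl 3 genes were higher in shade at 1.5 h (16.8% of features called), 1 was higher and 1 lower at 13.5 h (14.7%), and 1 higher and 1 lower at 25.5 h (20.0%). In the cotyledon 1 was higher at 1.5 h (2.21%), 2 at 13.5 h (4.80%), and 2 were higher and 1 lower at 25.5 h (12.4%).

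EXPA8 was higher in shade than in ethylene in 5 of the 6 contrasts, the exception being the hypocotyl at night (0.17 ± 0.24, adjusted p = 0.760, 95% interval -0.32 to 0.65). Its largest difference was in the cotyledon at night, 2.84 ± 0.24 or 7.18-fold (adjusted p = 3.09e-11). The other 4 were 0.83 and 1.31 in hypocotyl at 1.5 and 25.5 h and 1.01 and 1.04 in cotyledon at these times, each ± 0.24 (adjusted p = 0.0114, 3.80e-05, 0.0106 and 0.00195). The hypocotyl difference at 1.5 h missed the threshold without shade replicate 2 (adjusted p = 0.0543), and the cotyledon difference at 1.5 h without shade replicate 2 (adjusted p = 0.0538) or ethylene replicate 3 (adjusted p = 0.122).

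EXPB1 was higher in shade in hypocotyl at 1.5 h (1.50 ± 0.30, adjusted p = 0.000374) and 13.5 h (1.77 ± 0.30, adjusted p = 2.57e-05) and in cotyledon at 13.5 h (2.63 ± 0.30 or 6.19-fold, adjusted p = 6.99e-08). EXLA2 was higher in shade in hypocotyl at 1.5 h (1.84 ± 0.35, adjusted p = 0.000203) and in cotyledon at 25.5 h (3.28 ± 0.35 or 9.74-fold, adjusted p = 5.66e-09). In cotyledon at 13.5 h its difference was 1.11 ± 0.35 (adjusted p = 0.0616), or 1.47 without the array high in jacalin lectins, which passed (adjusted p = 0.000319). In hypocotyl at 25.5 h, where both treatments raised it, shade minus ethylene was 0.56 ± 0.35 (adjusted p = 0.320, 95% interval -0.16 to 1.27). EXPA4 was lower in shade in hypocotyl at 13.5 h (-1.74 ± 0.30, adjusted p = 3.57e-05) and 25.5 h (-1.48 ± 0.30, adjusted p = 0.000228), and in cotyledon at 25.5 h (-0.94 ± 0.30, adjusted p = 0.0349). The second of these was -0.87 without hypocotyl shade replicate 2 (adjusted p = 0.0171) and had an adjusted p of 0.106 in the fit to the compared arrays alone. The cotyledon difference lost its call without any 1 array other than shade replicate 1 (adjusted p 0.0610 to 0.140), with reference centring (adjusted p = 0.0565) and with quantile normalization within the tissue (adjusted p = 0.0721). EXPA15 gave no call, with values from -0.60 to 0.68 and adjusted p from 0.0953 to 0.999.

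Control hypocotyl and control cotyledon differed in 6 of 15 tests, 5 higher in hypocotyl and 1 lower (5 and 2 when centred on reference genes), against 34.5% of all tests, a share near that of these genes. One gene was higher at 1.5 h (42.6% of features called), 2 at 13.5 h (30.5%), and 2 were higher and 1 lower at 25.5 h (30.5%). EXPA8 was higher in hypocotyl at night (1.38 ± 0.24, adjusted p = 1.04e-05) and on the second day (1.20 ± 0.24, adjusted p = 9.34e-05), and at 1.5 h the difference was 0.08 ± 0.24 (adjusted p = 0.828). EXLA2 was higher in hypocotyl at 1.5 h (1.53 ± 0.35, adjusted p = 0.000423) and lower at 25.5 h (-2.80 ± 0.35 or 6.95-fold, adjusted p = 2.36e-08). EXPB1 was higher in hypocotyl at night (1.07 ± 0.30, adjusted p = 0.00518). That difference was 0.77 without the arrays high in jacalin lectins (adjusted p = 0.163) and its adjusted p was 0.0653 without cotyledon replicate 1. EXPA4 was higher at 25.5 h (0.91 ± 0.30, adjusted p = 0.0187), a call that ended without hypocotyl replicate 2 (adjusted p = 0.168), without cotyledon replicate 1 (adjusted p = 0.0607) or with reference centring (0.72, adjusted p = 0.0648). At 13.5 h the difference of EXLA2 was -0.44 ± 0.35 (adjusted p = 0.396), or -0.95 without the arrays high in jacalin lectins (adjusted p = 0.0360). EXPA15 was not called, with -0.46, 0.64 and 0.29 at the 3 times. Without those arrays the first was -1.34 and passed (adjusted p = 0.000530), hypocotyl being lower; it rests on 1 hypocotyl array, and with reference centring it also passed (adjusted p = 0.0204).

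In the control time courses 16 of 30 tests were called, 6 higher and 10 lower at the later time, against 24.7% over all features. From 1.5 to 13.5 h 3 genes fell in hypocotyl (31.2% of features called) and 4 in cotyledon (18.4%), namely EXPA8, EXPB1 and EXLA2 in both and EXPA4 in cotyledon. From 13.5 to 25.5 h 2 rose in hypocotyl (22.2%) and 3 in cotyledon (27.5%). From 1.5 to 25.5 h 2 were lower in hypocotyl (31.9%), and in cotyledon 1 was lower and 1 higher (17.0%). EXPA15 gave no call over time, with values from -0.67 to 0.51. The latter, in control hypocotyl from 1.5 to 25.5 h, was 1.39 without the arrays high in jacalin lectins and passed (adjusted p = 0.000860), with 1 array left at 1.5 h.

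The response to a treatment was compared between the tissues as treatment minus control in hypocotyl minus the same in cotyledon. Of 30 tests 8 were called, 4 higher and 4 lower, against 4.95% over all features. For ethylene none of the 5 genes was called at 1.5 h (0.137% of features called), 2 at 13.5 h (3.12%) and 2 at 25.5 h (14.8%). For shade none was called at 1.5 h (2.16%), 1 at 13.5 h (3.91%) and 3 at 25.5 h (5.63%).

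EXLA2 had the largest tissue difference, 5.85 ± 0.50 for ethylene at 25.5 h (adjusted p = 2.69e-11), the rise of 3.53 in hypocotyl set against the fall of -2.31 in cotyledon. For shade at 25.5 h its difference was 3.12 ± 0.50 (adjusted p = 4.31e-05). EXPA8 differed for ethylene at night by 3.62 ± 0.34 (adjusted p = 1.11e-09), again a rise in hypocotyl against a fall in cotyledon. EXPB1 differed for ethylene at night by 1.68 ± 0.43 (adjusted p = 0.0184), although neither tissue was called on its own. This call ended without any 1 of 5 arrays at 13.5 h, hypocotyl control replicate 2, hypocotyl ethylene replicate 3, cotyledon control replicate 3 or cotyledon ethylene replicate 1 or 2 (adjusted p 0.0637 to 0.131), and in the fit to the compared arrays alone (adjusted p = 0.396). Without the arrays high in jacalin lectins it was 2.44 (adjusted p = 0.00221).

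EXPA4 and EXPA15 were lower in hypocotyl than in cotyledon in these terms. EXPA4 differed for shade by -1.85 ± 0.43 at 13.5 h (adjusted p = 0.00875) and by -1.59 ± 0.43 at 25.5 h (adjusted p = 0.0183). The latter was -0.98 without hypocotyl shade replicate 2 (adjusted p = 0.128), and it also ended without hypocotyl control replicate 2 or cotyledon shade replicate 1 (adjusted p from 0.0527) and in the fit to the compared arrays alone (adjusted p = 0.234). EXPA15 differed at 25.5 h by -1.20 ± 0.36 for ethylene (adjusted p = 0.0154) and by -1.27 ± 0.36 for shade (adjusted p = 0.0254). The ethylene call ended without hypocotyl ethylene replicate 1, hypocotyl control replicate 3 or cotyledon ethylene replicate 3 (adjusted p 0.0583 to 0.0665). The shade call ended without any 1 of 6 of the 12 arrays, namely hypocotyl shade replicates 2 and 3, hypocotyl control replicate 3, cotyledon shade replicates 2 and 3 and cotyledon control replicate 1 (adjusted p 0.0511 to 0.0862).

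**Figure D4:**
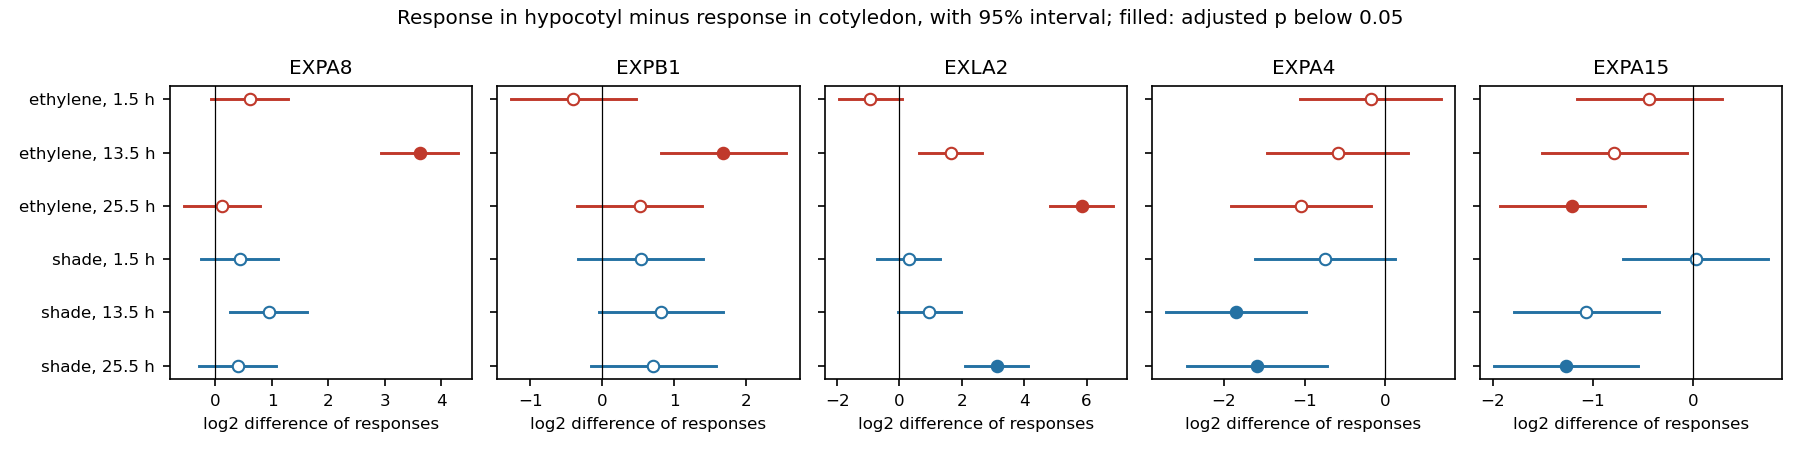
Response in hypocotyl minus response in cotyledon on the log2 scale (horizontal axis) with its 95% interval, for ethylene (red) and shade (blue) at each time (vertical axis); filled points have an adjusted p below 0.05. EXLA2 reaches 5.85 for ethylene at 25.5 h and EXPA8 3.62 at 13.5 h, and the filled points of EXPA4 and EXPA15 lie below 0.

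The response was also compared between times within a tissue, and 15 of 60 tests were called, 12 higher and 3 lower at the later time, against 4.21% over all features. For hypocotyl ethylene 3 genes were called between 1.5 and 13.5 h (3.44% of features), 2 between 1.5 and 25.5 h (14%) and 2 between 13.5 and 25.5 h (5.56%). For hypocotyl shade these counts were 2 (8.19%), 1 (8.99%) and 1 (5.72%). For cotyledon ethylene they were 0 (0.177%), 1 (0.840%) and 2 (0.708%), and for cotyledon shade 1 (0.674%), 0 (0.131%) and 0 (2.09%).

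The hypocotyl response of EXLA2 to ethylene was higher at 13.5 h than at 1.5 h by 2.76 ± 0.50 (adjusted p = 0.000483) and at 25.5 h than at 1.5 h by 4.79 ± 0.50 (adjusted p = 2.12e-09). Its further gain from 13.5 to 25.5 h was 2.03 ± 0.50 (adjusted p = 0.00794), which fell to 0.86 without the arrays high in jacalin lectins (adjusted p = 0.474). That gain also ended without ethylene replicate 1 or control replicate 3 at 13.5 h (adjusted p 0.0573 to 0.0646). Fitted to the compared arrays alone, it had an adjusted p of 0.161, and the difference between 13.5 and 1.5 h one of 0.103. Its response to shade at 25.5 h exceeded that at 1.5 h by 3.51 ± 0.50 (adjusted p = 4.55e-06) and that at 13.5 h by 2.17 ± 0.50 (adjusted p = 0.00414). In the cotyledon its ethylene response at 25.5 h was lower than at 1.5 h by -2.00 ± 0.50 (adjusted p = 0.0371) and than at 13.5 h by -2.16 ± 0.50 (adjusted p = 0.0227). Leaving out 1 array ended the former for 9 of the 12 arrays (adjusted p 0.0590 to 0.134; 0.0510 when adjusted over all features of the array) and the latter for 6 of 12 (adjusted p 0.0542 to 0.0956).

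In hypocotyl ethylene the response of EXPA8 at 13.5 h was above that at 1.5 h by 2.13 ± 0.34 (adjusted p = 7.25e-05) and the response at 25.5 h was below that at 13.5 h by -1.71 ± 0.34 (adjusted p = 0.000733). In cotyledon ethylene, where the night response was a fall, 25.5 h was above 13.5 h by 1.79 ± 0.34 (adjusted p = 0.00284), and 13.5 h against 1.5 h was -0.88 ± 0.34 (adjusted p = 0.544). In hypocotyl shade the response at 13.5 h exceeded that at 1.5 h by 1.47 ± 0.34 (adjusted p = 0.00400), or by 0.99 without the arrays high in jacalin lectins (adjusted p = 0.152). For EXPB1, treatment minus control was higher at 13.5 h than at 1.5 h in hypocotyl shade (2.02 ± 0.43, adjusted p = 0.00183). The same held in cotyledon shade (1.73 ± 0.43, adjusted p = 0.0401) and hypocotyl ethylene (1.75 ± 0.43, adjusted p = 0.0119). In hypocotyl ethylene 25.5 h was also above 1.5 h (1.85 ± 0.43, adjusted p = 0.00163). These ethylene differences span a change of sign, from -1.01 at 1.5 h to 0.74 at 13.5 h, both not called, and 0.84 at 25.5 h. The cotyledon shade difference ended without any 1 of 10 of its 12 arrays (adjusted p 0.0572 to 0.152), the exceptions being control replicate 3 at 1.5 h and at 13.5 h; its adjusted p was 0.0509 in the fit to the compared arrays alone and 0.0562 over all features of the array. The hypocotyl ethylene difference at 13.5 h ended without ethylene replicate 3 at that time (adjusted p = 0.0964), had an adjusted p of 0.178 in the fit to the compared arrays alone, and was 2.65 without the arrays high in jacalin lectins (adjusted p = 0.00649).

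Ordered by mean level over the 18 groups, EXPA8 ran from 11.86 in hypocotyl shade at 25.5 h to 5.02 in cotyledon ethylene at 13.5 h, a range of 6.84. Of its 17 steps between neighbours in this order, 11 joined groups whose arrays overlapped and 6 did not. The groups that stood clear of the next were the upper 3, all shade (hypocotyl at 25.5 and 1.5 h, cotyledon at 1.5 h), cotyledon ethylene at 1.5 h, and cotyledon shade and control at 13.5 h. EXPB1 ran from 9.84 in hypocotyl shade at 1.5 h to 3.60 in cotyledon ethylene at 13.5 h, with 5 clear steps, and its lowest 5 groups were all night groups. EXLA2 ran from 8.32 in hypocotyl shade at 25.5 h to 3.71 in control hypocotyl at 13.5 h, with 2 clear steps, below hypocotyl ethylene at 25.5 h and below control cotyledon at 25.5 h. EXPA15 spanned 1.52 and had 2 clear steps, from 5.42 in cotyledon ethylene at 25.5 h to 3.90 in hypocotyl shade at 25.5 h. EXPA4 spanned 2.13, from 6.11 in control hypocotyl at 1.5 h to 3.98 in hypocotyl shade at 13.5 h, and all 17 of its steps joined overlapping neighbours.

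Likeness of pattern was described by the Pearson correlation r of the 18 group means. It was taken over 8750 features with exactly 1 gene and a range of at least 1 on the log2 scale. The genes are read on the same arrays, and the groups share time points and normalization, so r is a description without a test. EXPA8 and EXPB1 were among the 3 genes most like each other (r = 0.91). EXPA8 was also close to AT4G30400 (0.92) and AT1G14430 (0.91), and EXPB1 to AT5G52580 (0.91) and AT3G54510 (0.90). The gene most like EXLA2 was THE1, a receptor-like kinase that senses the state of the cell wall (0.97), followed by AT2G46780 (0.95) and AT5G66580 (0.94). EXPA4 was closest to AT3G50910 (0.83), the gibberellin receptor gene GID1B (0.82) and AT4G08240 (0.80), and EXPA15 to AT2G44830 (0.83), AT3G53190 (0.79) and AT4G24780 (0.75). Among the 5 genes, EXLA2 had r of 0.69 with EXPA8 and 0.74 with EXPB1, and EXPA4 and EXPA15 had r between -0.43 and 0.23 with any other.

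The 18 other expansin and expansin-like genes were read in the same 12 treatment contrasts. Their values, and those of the wall genes below, come from the full fit alone, without the alternatives given for the 5 genes. In hypocotyl at 1.5 and 13.5 h they are set against control groups that hold arrays high in jacalin lectins. The part of those arrays in these values was not tested. In hypocotyl ethylene 0, 2 and 2 of the 18 were higher and 1, 1 and 1 lower at 1.5, 13.5 and 25.5 h, with list medians of 0.01, 0.06 and 0.02 beside 0.01, 0.00 and -0.02 over all features. In hypocotyl shade 1, 1 and 2 were higher and 2, 1 and 2 lower. Over all features the shares called, given above, were 3.03%, 12% and 22.9% in ethylene and 12.4%, 10.8% and 15.3% in shade, so that at 25.5 h the 3 of 18 in ethylene lay below the general share. The alpha-expansin gene EXPA9 moved apart under the treatments. It rose in hypocotyl ethylene by 2.49 ± 0.27 at 13.5 h (adjusted p = 6.35e-09) and 2.92 ± 0.27 at 25.5 h (adjusted p = 2.12e-11), and fell in hypocotyl shade by -0.85, -0.89 and -1.80 at the 3 times (adjusted p = 0.0340, 0.0266 and 2.98e-06). It also rose in cotyledon ethylene at 25.5 h (1.57 ± 0.27, adjusted p = 0.000121). EXPB3, a beta-expansin gene, fell in hypocotyl ethylene by -1.38, -2.54 and -4.95 (adjusted p = 0.00148, 7.03e-09 and 2.17e-17), from 10.83 in the control to 5.88 at 25.5 h, and in hypocotyl shade at 25.5 h by -1.34 (adjusted p = 0.000438).

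EXLA1 was called in the same 3 second-day contrasts and directions as EXLA2: it rose in hypocotyl ethylene (1.93 ± 0.33, adjusted p = 1.05e-05) and shade (3.54 ± 0.33, adjusted p = 4.78e-11) and fell in cotyledon ethylene (-1.99 ± 0.33, adjusted p = 4.94e-05). These contrasts use the control arrays that EXLA2 is set against, and a cross-reaction of the probes of EXLA1 and EXLA2 was not tested. EXLB1 rose in hypocotyl ethylene at 13.5 h (0.81, adjusted p = 0.00584) and hypocotyl shade at 25.5 h (0.60, adjusted p = 0.0458). At 1.5 h hypocotyl shade raised EXPB2 (0.72, adjusted p = 0.0391) and lowered EXPB5 (-0.92, adjusted p = 0.00978), both of them dim genes with control means of 2.13 and 3.47. EXPA20 rose in shade at 13.5 h in hypocotyl (0.61, adjusted p = 0.00775) and cotyledon (0.86, adjusted p = 0.000723), and EXPA16 in cotyledon shade at 1.5 h (1.38, adjusted p = 0.00153). In the cotyledon, ethylene called none of the 18 at 1.5 and 13.5 h and 1 higher and 1 lower at 25.5 h. Shade called 1, 1 and 0, all higher. Over all features 1.01%, 1.61% and 5.20% were called in cotyledon ethylene and 0.526%, 4.54% and 8.81% in cotyledon shade.

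**Figure D5:**
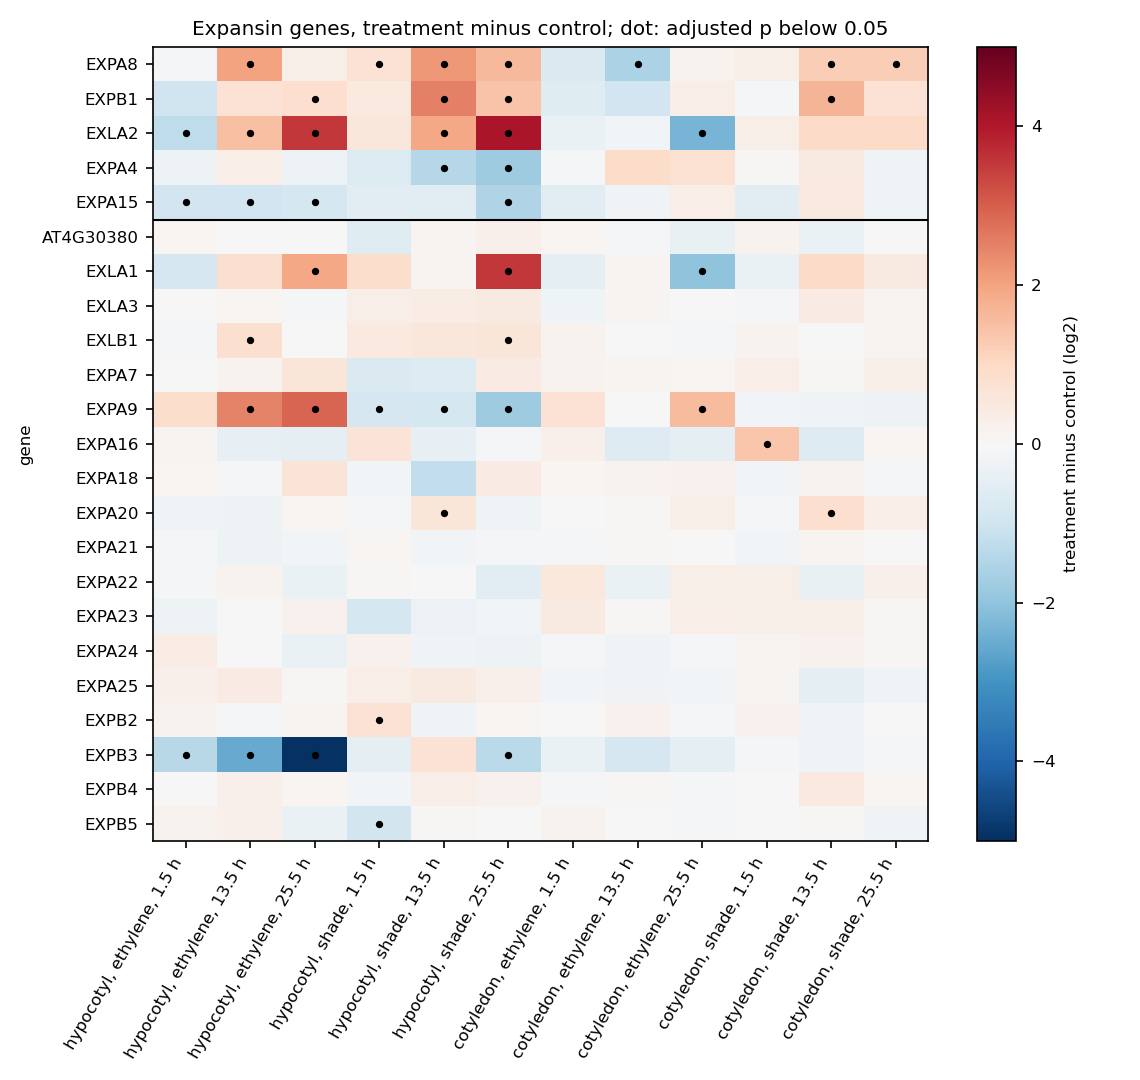
Treatment minus control on the log2 scale (colour) for the 5 genes (above the line) and the 18 other expansin and expansin-like genes (below it), in rows, over the 12 treatment contrasts in columns; a dot marks an adjusted p below 0.05. The deepest blue cell is EXPB3 in hypocotyl ethylene at 25.5 h, at -4.95, and EXLA1 has dots in the 25.5 h columns where EXLA2 also has them.

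Other wall genes were counted from lists. Of 9 measured XTH genes, which encode xyloglucan endotransglucosylases that cut and rejoin wall xyloglucan, hypocotyl ethylene left 0, 2 and 4 higher and 2, 0 and 1 lower at 1.5, 13.5 and 25.5 h. Hypocotyl shade left 2, 1 and 3 higher and 1, 0 and 1 lower. The same shares over all features apply here, 22.9% and 15.3% at 25.5 h among them. The list medians at 25.5 h were 0.13 in ethylene and 0.13 in shade, beside -0.02 and 0.02 over all features. In hypocotyl ethylene at 25.5 h the rises were in XTH19 (4.86 ± 0.31), XTH33 (3.08 ± 0.21), XTH18 (2.20 ± 0.43) and XTH16 (2.19 ± 0.31) and the fall in XTH32 (-0.65 ± 0.16). In hypocotyl shade at that time XTH16 (3.19), XTH33 (2.04) and XTH19 (1.94) rose and XTH32 (-0.98) fell. XTH16, like EXLA2, was called lower in hypocotyl ethylene at 1.5 h (-1.40 ± 0.31, adjusted p = 0.00425) and in cotyledon ethylene at 25.5 h (-1.06 ± 0.31, adjusted p = 0.0335); the 2 genes are set against the same control arrays. In the cotyledon, ethylene left 0, 1 and 0 of the XTH genes higher and 1, 0 and 1 lower. Shade there called none at 1.5 and 13.5 h and 1 in each direction at 25.5 h. The cotyledon shares over all features given above apply to these counts.

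Only 4 of 28 listed genes of wall acidification and wall synthesis were measured: COB, needed for oriented cell expansion, the receptor kinases FER and THE1, and AT2G18010, which RefSeq names SAUR10, of a family whose members activate proton pumps. At 13.5 h THE1 and COB rose in hypocotyl ethylene (0.64 and 0.57), and THE1, FER and COB in hypocotyl shade (1.06, 0.44 and 0.39). COB, FER, THE1 and AT2G18010 all rose in hypocotyl ethylene at 25.5 h, by 0.77, 1.21, 1.79 and 3.57 (adjusted p = 1.15e-06, 5.00e-10, 2.65e-11 and 2.88e-15). FER, THE1 and AT2G18010 rose in hypocotyl shade then, by 1.18, 2.29 and 1.97 (adjusted p = 2.35e-09, 1.01e-13 and 3.65e-08). Of all features 22.9% were called in hypocotyl ethylene at that time and 15.3% in hypocotyl shade. THE1 fell in hypocotyl ethylene at 1.5 h (-0.78 ± 0.17, adjusted p = 0.00286) and in cotyledon ethylene at 25.5 h (-0.61 ± 0.17, adjusted p = 0.0210). EXLA2 was also called lower in these contrasts, where 3.03% and 5.20% of all features were called. In cotyledon shade FER and THE1 rose at 13.5 h (0.57 and 0.62) and 25.5 h (0.47 and 0.57), where 4.54% and 8.81% of all features were called.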

How the data were processed

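Per the labels and the submitters' processing notes, the authors deposited log2 values made with Affymetrix Expression Console 1.4 by RMA (background correction, quantile normalization and probe summary) as a core-gene analysis of Arabidopsis Gene 1.1 ST arrays; Transcriptome Analysis Console 3.0 is named without a role. RMA can compress differences of dim genes, and whether both tissues were normalized together is not given in the sources used here. The genome build behind the probes is not given in the sources used here, so no coordinates or sequences are printed. Of 38408 features, 17504 carry a gene (16746 exactly 1, 758 several); 16697 of the single genes matched RefSeq, 16601 by identifier and 96 by locus tag.

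The values were not renormalized. One model with 18 group means was fitted to 54 arrays with limma 3.58.1 (R 4.3.3) and tested in 45 contrasts, with 36 residual degrees of freedom. The p-values measure the spread between arrays from 3 experiments. Genes named outside the 5 follow set rules: the 3 most alike in pattern, and from each list those called where there were 5 or fewer, otherwise the 2 largest rises and falls. The genes, lists and the jacalin threshold (1.5 above the tissue median) were chosen with earlier results of these data known. Alternatives were quantile normalization within a tissue, centring on reference genes, the replicate number as a block, a fit to the compared arrays alone, a filter on dim features, adjustment over all features, a trended robust prior, leaving out each array, and leaving out the arrays high in jacalin lectins. They were applied to the 5 genes, and contrasts of genes outside the 5 come from the full fit alone.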

Additional observations from a re-analysis of the deposited data

Results flagged for a closer look

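In 23 cases the response of a gene differed between the tissues or between times by a test of the difference itself, each at an adjusted p below 0.05 from limma. Of 30 tests between tissues 8 were called, against 4.95% over all features, and of 60 between times 15, against 4.21%. Between tissues, as hypocotyl response minus cotyledon response, these were EXPA8 for ethylene at 13.5 h (3.62), EXPB1 for ethylene at 13.5 h (1.68), EXLA2 at 25.5 h for ethylene (5.85) and shade (3.12), EXPA4 for shade at 13.5 h (-1.85) and 25.5 h (-1.59), and EXPA15 at 25.5 h for ethylene (-1.20) and shade (-1.27). Between times in the hypocotyl, later minus earlier response, EXPA8 differed for ethylene by 2.13 (13.5 against 1.5 h) and -1.71 (25.5 against 13.5 h) and for shade by 1.47 (13.5 against 1.5 h). EXPB1 differed for ethylene by 1.75 (13.5 against 1.5 h) and 1.85 (25.5 against 1.5 h) and for shade by 2.02 (13.5 against 1.5 h). EXLA2 differed for ethylene by 2.76 (13.5 against 1.5 h), 4.79 (25.5 against 1.5 h) and 2.03 (25.5 against 13.5 h), and for shade by 3.51 (25.5 against 1.5 h) and 2.17 (25.5 against 13.5 h). In the cotyledon, EXPA8 differed for ethylene by 1.79 (25.5 against 13.5 h), EXPB1 for shade by 1.73 (13.5 against 1.5 h), and EXLA2 for ethylene by -2.00 (25.5 against 1.5 h) and -2.16 (25.5 against 13.5 h). Several of these calls ended under alternatives, as given above. Leaving out 1 array ended the EXPB1 shade call in cotyledon for 10 of 12 arrays. It ended the cotyledon EXLA2 call of 25.5 against 1.5 h for 9 of 12. The hypocotyl EXLA2 difference of 2.03 was 0.86 without the arrays high in jacalin lectins.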

How the results depend on the processing

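Of 81 called results, 52 kept their direction and call under every alternative, and none changed sign. Of 77 results not called in the contrasts between treatments, tissues or times, 51 were called under no alternative. Uncalled differences of responses between tissues or times were not counted among the 77, whereas called ones are among the 81. The number of EXPA8 treatment calls went from 7 to 4 when only the compared arrays were fitted, and that of EXPA15 from 4 to 2 without the arrays high in jacalin lectins. Leaving out each array in turn gave 2 to 4 treatment calls for EXPA4 (2 in the full fit), 6 to 7 for EXPA8, 3 to 5 for EXPA15, 3 to 7 for EXPB1 (4 in the full fit) and 5 to 8 for EXLA2; the 4 of EXPA4 came without hypocotyl shade replicate 1 or 2 at 25.5 h, and the 7 of EXPB1 without cotyledon ethylene replicate 3 at 13.5 h. Over all 5 genes the counts ran from 20 to 27 for treatment against control, 12 to 14 for shade against ethylene, 5 to 8 between control tissues, 15 to 18 over time, 6 to 9 for tissue differences and 13 to 17 for time differences. All 5 genes passed the filter on dim features.

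The labels do not say what a replicate number stands for, and not every pair of same-numbered arrays deviated together. Of 36 pairs over the treatment contrasts 11 correlated above 0.1 (-0.19 to 0.29). All 3 pairs did so in 1 of 12 contrasts, and in control hypocotyl at 13.5 against 1.5 h (0.26 to 0.46). Yet 36 of 54 arrays correlated best with their own number out of 3, so same-numbered arrays may share part of their deviations. The main fit did not use the number. With the replicate number as a block the treatment calls were 23, as without it, and the tissue calls 7 in place of 6; it added EXPA15 between control tissues at 13.5 h (0.64, adjusted p = 0.0358) and in control cotyledon from 1.5 to 13.5 h (-0.67, adjusted p = 0.0408). When arrays were centred on 4 reference genes, the median over features shifted by more than 0.1 in 20 of 45 contrasts (-0.28 to 0.28).

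Values that changed sign were all uncalled. Uncalled differences of responses were not included here. With reference centring, EXPA8 and EXPB1 between control tissues at 1.5 h became -0.21 and -0.0345 and EXPA4 in control hypocotyl from 1.5 to 25.5 h became 0.0794. Quantile normalization within the tissue turned EXPA15 for cotyledon shade minus ethylene at 1.5 h to 0.12. Without the arrays high in jacalin lectins, EXPA15 in hypocotyl shade at 1.5 h was 0.37, and shade minus ethylene in hypocotyl at 13.5 h was -0.0132 for EXPA8 and -0.24 for EXLA2.
Leaving out 1 array at a time gave ranges that cross 0 for 13 uncalled values, again without the uncalled differences of responses. For EXPA4 these were -0.36 to 0.11 in control hypocotyl from 1.5 to 25.5 h, and in cotyledon at 1.5 h -0.15 to 0.0601 for ethylene, -0.0128 to 0.12 for shade and -0.0082 to 0.20 for shade minus ethylene. For EXPA8 they were -0.0132 to 0.31 for shade minus ethylene in hypocotyl at 13.5 h, -0.0652 to 0.34 for cotyledon ethylene at 25.5 h and -0.0165 to 0.23 between control tissues at 1.5 h. For EXPA15 they were -0.009 to 0.67 and -0.10 to 0.26 in control hypocotyl (13.5 minus 1.5 h and 25.5 minus 13.5 h) and -0.10 to 0.0867 for cotyledon shade minus ethylene at 1.5 h. EXPB1 ran from -0.19 to 0.0614 in cotyledon shade at 1.5 h, and EXLA2 from -0.24 to 0.79 for shade minus ethylene in hypocotyl and from -0.35 to 0.15 for cotyledon ethylene, both at 13.5 h. The causes were not tested.
The alternative of another feature of the same gene could not be tried, because each gene had 1. With 3 arrays a group, the smallest called treatment difference was 0.72 (EXPA8, hypocotyl shade at 1.5 h) and the largest uncalled one -1.01 (EXPB1, hypocotyl ethylene at 1.5 h).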
